A study of Mus musculus with 15 samples.

Results

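Described here are the genes of the epidermal growth factor (EGF) receptor family and its ligands in cultured mouse astrocytes. The 10 genes were chosen by name: the receptors Egfr, Erbb2, Erbb3 and Erbb4, the EGFR ligands Hbegf, Areg, Ereg, Tgfa and Btc, and the neuregulin Nrg1. All 10 were found among the 25748 gene symbols, and all 10 passed the filter on low counts that left 15362 genes to be tested. The receptors are membrane tyrosine kinases that pair when a ligand binds and pass the signal on through RAS and ERK and through PI3K and AKT. Most ligands are made as membrane proteins and are released by metalloproteases such as ADAM17. In brain, EGFR signalling is known for driving astrocyte growth and reactivity, and neuregulins act through ERBB3 and ERBB4.

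The libraries, made from polyadenylated RNA of primary mouse brain astrocytes, form 3 groups of 5. The Rg1 plus LPS group was given 80 µM of ginsenoside Rg1, a ginseng saponin, for 12 h and then 1 µg/mL lipopolysaccharide (LPS), the bacterial TLR4 agonist, for 6 to 8 h. The LPS group, which the submitters label SCI, received LPS alone at the same dose and time, and the control group is given neither in the labels. No group with Rg1 and without LPS was analysed here, and the sources used here give no strain, age or sex. No label states whether replicates are separate cultures or animals, so p-values reflect only how much these samples vary, which may be technical.

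Total counts ran between 34.2 and 41.8 M per library. Summed astrocyte markers, all 10 of which were tested, averaged 8400 ± 1630 CPM (counts as parts per M of the scaled library size) with Rg1 plus LPS, 7670 ± 2070 CPM with LPS and 10700 ± 1170 CPM in control (SD, n = 5 each). The sum of 6 fibroblast and mural markers was also high, mostly from Col1a1 and Col1a2, at 3570 ± 1440, 4890 ± 644 and 4250 ± 420 CPM in the same order of groups. The summed microglia and macrophage markers were between 103 and 136 CPM with Rg1 plus LPS, between 117 and 180 CPM with LPS and between 117 and 190 CPM in control, and 6 of the 11 found fell with Rg1 plus LPS relative to LPS and 4 relative to control, where 23.2% and 18.1% of all genes tested fell. None of the 11 was at 0 in any library. Summed endothelial markers averaged 96.3, 154 and 135 CPM in Rg1 plus LPS, LPS and control cells, oligodendrocyte lineage markers 478, 441 and 469 CPM and neuron markers 598, 587 and 595 CPM. Mitochondrial genes took 2.77 to 4.98% of counts with Rg1 plus LPS, 1.58 to 2.37% with LPS and 2.49 to 2.8% in control. On principal component 3 of all genes tested, Rg1 plus LPS replicates 1 and 4 lay at 37.4 and 20.8 and the other 3 of that group between -37.6 and -19.3. LPS replicates 1 and 4 lay at 9.22 and 27.9 and the other LPS libraries between -26.1 and -6.69. Control lay between -7.01 and 21.4. Rg1 plus LPS results are also given without replicates 1 and 4 where a named call or a count of listed genes changes. All LPS and control libraries were kept in those fits. Of the microglia and macrophage markers, 5 then fell relative to LPS and 3 relative to control, and 1 rose in each. The part of these markers and of the mitochondrial share in the results for the 10 genes was not tested.

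Of the 10 genes, 3 ligands sit together on chromosome 5 (GRCm38.p6, RefSeq): Ereg at 91074617 to 91093649, Areg at 91139599 to 91148432 and Btc at 91357261 to 91402994. With the related Epgn, these span 375 kb. The RefSeq promoter table for that build held 6 of the 10 genes, namely Egfr, Erbb2, Erbb4, Areg, Tgfa and Btc. Erbb3, Hbegf, Ereg and Nrg1 were not matched. Windows reaching 250 bases before to 50 bases after the start given in that table were searched on both strands for a cyclic AMP response element (TGACGTCA), an AP-1 site (TGANTCA) and an NF-kB type site (GGG and CC with any 5 bases between). These letters occur in 1.79%, 7.81% and 50.8% of the 32851 promoters in the table. In 4 of the 6 the start of the window is the RefSeq gene start. For Tgfa and Erbb4 it lies 184 and 517 bases inside the gene, so that their windows are not promoters of the gene's first base and are not described further. The 250 bases before the start are printed for the EGFR ligand Areg, whose transcript fell after LPS, and for Egfr, which fell with Rg1 plus LPS. Capitals mark matches to these motifs, read 5′ to 3′ on the plus strand. The Areg stretch lies at chr5:91139349-91139598 and the Egfr stretch at chr11:16751953-16752202.
Areg: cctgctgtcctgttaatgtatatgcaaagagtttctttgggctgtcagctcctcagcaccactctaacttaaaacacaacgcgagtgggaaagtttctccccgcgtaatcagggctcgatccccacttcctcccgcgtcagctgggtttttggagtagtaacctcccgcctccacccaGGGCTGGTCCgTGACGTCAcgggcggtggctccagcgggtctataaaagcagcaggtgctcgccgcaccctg
Egfr: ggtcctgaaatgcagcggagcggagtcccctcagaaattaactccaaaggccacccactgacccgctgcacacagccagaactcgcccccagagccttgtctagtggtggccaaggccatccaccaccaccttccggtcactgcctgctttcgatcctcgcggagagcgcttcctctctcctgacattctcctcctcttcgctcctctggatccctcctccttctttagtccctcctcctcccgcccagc
The Areg window was the one of the 4 that held the full cyclic AMP element, with its first base 61 bases before the start, and an NF-kB type match (GGGCTGGTCC) began 72 bases before it. The Egfr window held such a match after the start, at base 36, and none in the stretch printed. The windows of Erbb2 and Btc held NF-kB type letters as well, and no AP-1 match was found in the 4. A match of letters is a description and does not show that a factor binds there.

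Levels between genes are compared as deposited FPKM, which scales counts to gene length. Hbegf, a heparin-binding EGFR ligand, was the highest of the 10 in every group, with a mean of 93.5 FPKM with Rg1 plus LPS, 100 FPKM with LPS and 200 FPKM in control. Averaged over the 15 libraries it stood above 96.8% of all tested genes. Ereg (epiregulin) followed in control and LPS cells at 19.7 and 15.1 FPKM, but had 2.83 FPKM with Rg1 plus LPS, which put it below Egfr and Erbb2. Egfr averaged 6.32, 9.76 and 8.16 FPKM and Erbb2 6.4, 6.2 and 6.39 FPKM in Rg1 plus LPS, LPS and control cells.

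Areg (amphiregulin) held rank 3 in control at 9.74 FPKM and rank 7 in both treated groups, at 0.951 FPKM with Rg1 plus LPS and 1.05 FPKM with LPS. In control its libraries overlapped those of Egfr and Erbb2, so that the order of these 3 is not separated by the spread. Tgfa (transforming growth factor alpha) was lower, at 1.45, 2 and 3.51 FPKM in Rg1 plus LPS, LPS and control cells. Erbb3, Erbb4 and Btc were near the bottom of the genes tested, above 4.94, 0.97 and 5.72% of them, and their libraries overlapped one another in several groups.

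This order depends on the gene length used, most of all for Nrg1. The deposited values divide its counts by 23207 bases, which is 4.29 times its longest transcript of 5415 bases in GENCODE M21. Its mean was 2.63 FPKM with Rg1 plus LPS, 5.81 FPKM with LPS and 3.75 FPKM in control as deposited. Scaled to the longest transcript, it was 11.3, 24.9 and 16.1 FPKM, rank 2 of the 10 in both treated groups and rank 3 in control. The deposited lengths of Egfr, Erbb4, Hbegf and Btc were 1.26, 2.02, 0.822 and 0.714 times their longest transcripts. On the transcript scale Egfr stood above Erbb2 with Rg1 plus LPS, at 7.96 against 6.38 FPKM. In control Areg moved to rank 5, below Egfr at 10.3 FPKM, while Hbegf stayed highest in every group. Changes between groups are not touched by this, since 1 length serves all libraries.

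**Figure D1:**
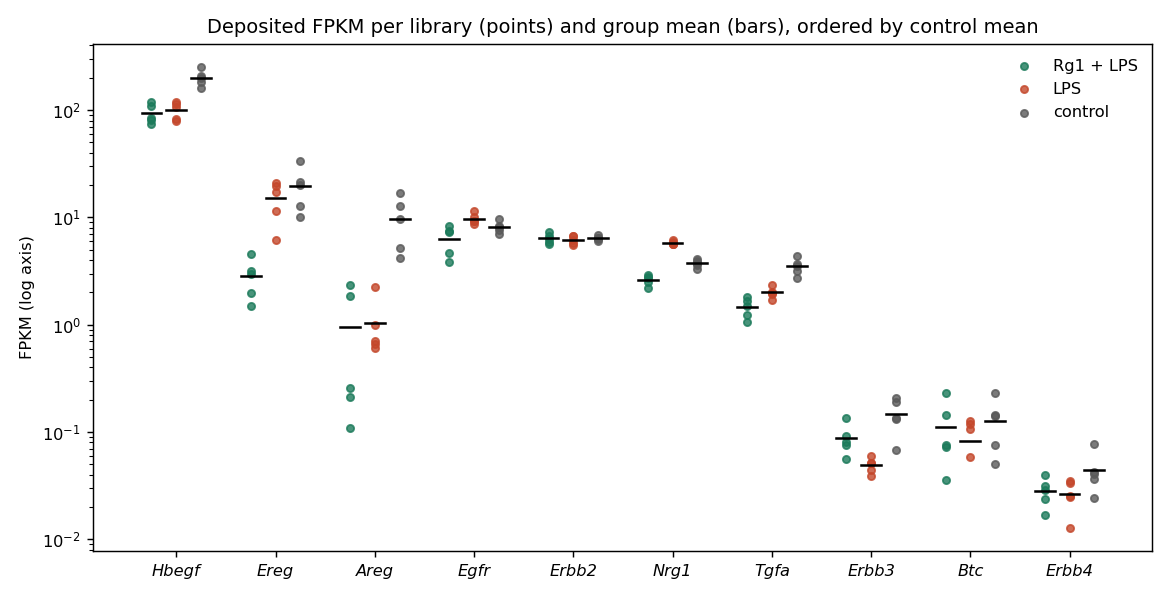
Deposited FPKM of the 10 genes on a log axis, with genes ordered by their control mean; points are libraries and bars are means of 5. Hbegf lies highest in all 3 groups, while Erbb3, Btc and Erbb4 lie below 1 FPKM; LPS replicate 3 had no Btc count and cannot be drawn on this axis.

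Summed over the 5 EGFR ligands, the level was 99 ± 22.3 FPKM with Rg1 plus LPS, 118 ± 24 FPKM with LPS and 233 ± 49.1 FPKM in control (SD, n = 5 each). Hbegf made up 94.8 ± 1.27% of that sum with Rg1 plus LPS, 85 ± 3.18% with LPS and 86.4 ± 3.47% in control. Ereg supplied most of the difference in makeup, with 2.78 ± 0.691, 12.3 ± 3.41 and 8.1 ± 2.12% in the same order. Among the 4 receptors, Egfr made up 48.3 ± 6.7% of the summed FPKM with Rg1 plus LPS, 60.8 ± 4.34% with LPS and 55.2 ± 3.56% in control. Erbb3 and Erbb4 together never passed 1.8% of the receptor sum in any library. All of these sums use the deposited lengths, and the shares would differ by longest transcript.

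Of the 10 genes, 5 passed the test in LPS against control, where 23.7% of all genes tested did, 13.8% higher and 9.82% lower. Nrg1 rose, and Erbb3, Hbegf, Areg and Tgfa fell. Their groups did not overlap, which was the case for 20.4% of all genes. Between Rg1 plus LPS and LPS, 4 genes passed, all lower with Rg1 plus LPS and none overlapping: Egfr, Ereg, Tgfa and Nrg1. There 45.4% of all genes passed, 22.2% higher and 23.2% lower, and 27.5% did not overlap, so that 4 of 10 is near the background share. Relative to control, 6 genes fell with Rg1 plus LPS and none rose: Erbb3, Hbegf, Areg, Ereg, Tgfa and Nrg1. The background there was 36.9% of all genes, with 18.8% higher and 18.1% lower, and 26.2% not overlapping, against 5 of the 10 genes without overlap. The median log2 fold change of the 10 genes was -0.65 in LPS against control, beside -0.003 over all genes tested. It was -0.23 between Rg1 plus LPS and LPS, beside 0.028, and -0.76 between Rg1 plus LPS and control, beside 0.011. The 3 comparisons share libraries in pairs, so they are not independent of one another. All adjusted p-values are from edgeR's quasi-likelihood test with Benjamini-Hochberg adjustment over the 15362 genes, and a gene passed at adjusted p under 0.05.

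**Figure D2:**
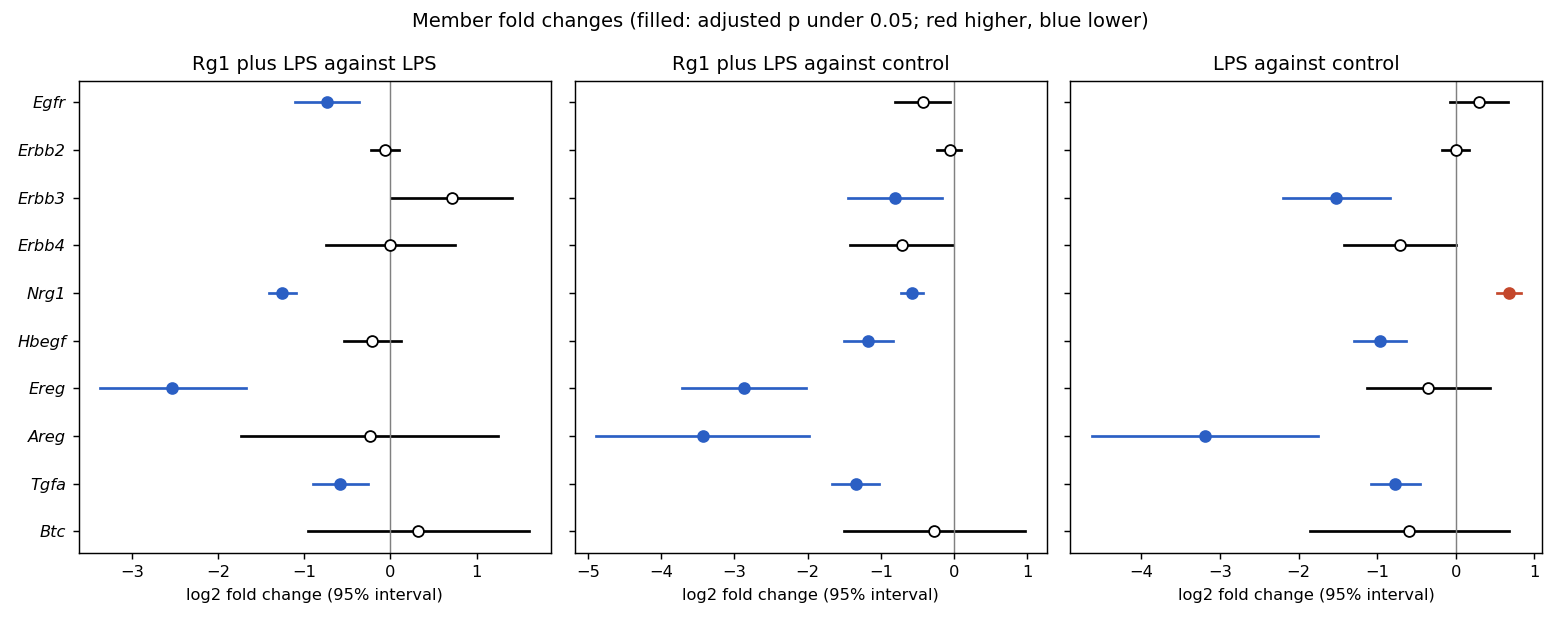
Log2 fold change of each gene with its 95% interval in the 3 comparisons; filled points passed at adjusted p under 0.05, red higher and blue lower. The panels hold 4, 6 and 5 filled points from left to right, and Nrg1 in the right panel is the one filled point above 0.

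Egfr encodes the receptor for EGF and for the 5 EGFR ligands described here. It had 47.4, 92.2, 88.2, 58.0 and 104 CPM in Rg1 plus LPS replicates 1 to 5, against 123, 135, 154, 114 and 125 CPM in the LPS replicates and 98.1, 125, 105, 107 and 92.3 CPM in the control replicates. All 5 Rg1 plus LPS libraries lay below all 5 LPS libraries, with replicates 1 and 4 far below the other 3, whereas the Rg1 plus LPS and control groups overlapped. Egfr fell with Rg1 plus LPS relative to LPS, by 0.74 ± 0.17 on the log2 scale (adjusted p = 0.00291), which is 1.67-fold lower. In bulk RNA, fewer cells of a type and less RNA per cell cannot be told apart. Without Rg1 plus LPS replicates 1 and 4 the log2 fold change against LPS was -0.45 (adjusted p = 0.00287). The other comparisons of Egfr did not pass, with log2 fold changes of 0.30 ± 0.17 in LPS against control (adjusted p = 0.223) and -0.43 ± 0.17 between Rg1 plus LPS and control (adjusted p = 0.0635). Against control, Egfr in Rg1 plus LPS passed under 5 of 20 alternatives, among them DESeq2, with -0.45 and adjusted p = 0.0274. It did not pass under the other 15. Leaving out single libraries gave -0.55 (without Rg1 plus LPS replicate 5) to -0.30 (without replicate 1). The adjusted p of these fits ran from 0.0221 to 0.149.

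Erbb2 encodes a receptor with no known ligand of its own that serves as the partner of the other 3. It had 27.0, 32.5, 28.1, 30.3 and 35.8 CPM with Rg1 plus LPS, 32.1, 30.2, 29.2, 34.2 and 34.9 CPM with LPS and 34.5, 31.4, 31.7, 30.5 and 32.5 CPM in control. The 3 groups lay over one another. The log2 fold change was between -0.17 and 0.17 for LPS against control and between -0.23 and 0.10 for Rg1 plus LPS relative to LPS, by their 95% intervals.

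Erbb3, a neuregulin receptor with little kinase activity, was scarce, with 101 counts summed over the Rg1 plus LPS group, 56 over LPS and 162 over control. It had 0.435, 0.323, 0.519, 0.772 and 0.477 CPM with Rg1 plus LPS, 0.323, 0.244, 0.277, 0.310 and 0.376 CPM with LPS and 0.801, 1.14, 0.801, 0.410 and 1.26 CPM in control. Every LPS library lay below every control library, and Rg1 plus LPS overlapped both other groups. Erbb3 fell by 1.52 ± 0.32 on the log2 scale in LPS against control (adjusted p = 0.00248). The difference between Rg1 plus LPS and LPS was 0.71 ± 0.33 and did not pass (adjusted p = 0.0889). With Rg1 plus LPS it fell relative to control by 0.81 ± 0.30 on the log2 scale with adjusted p = 0.0479, just inside the threshold. That call was lost under 16 of 20 alternatives, with adjusted p up to 0.133, including 8 of the 10 fits that left out a single library.

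Erbb4, the neuregulin receptor with full kinase activity, was as scarce, with 132 counts summed over the Rg1 plus LPS group, 118 over LPS and 195 over control. It ran between 0.397 and 0.931 CPM with Rg1 plus LPS, between 0.326 and 0.891 CPM with LPS and between 0.594 and 1.90 CPM in control. The treated groups lay mostly below control but overlapped it. No comparison of it passed: the log2 fold change was -0.71 ± 0.34 in LPS against control (adjusted p = 0.135) and -0.71 ± 0.33 between Rg1 plus LPS and control (adjusted p = 0.104).

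Nrg1 encodes neuregulin 1, the ligand of ERBB3 and ERBB4. It had 64.2, 56.2, 60.3, 61.5 and 50.4 CPM with Rg1 plus LPS, 150, 136, 144, 132 and 136 CPM with LPS and 84.3, 90.3, 87.7, 77.9 and 97.4 CPM in control. The 3 groups were fully apart, with LPS highest and Rg1 plus LPS lowest, and the libraries of a group were close together. Nrg1 rose in LPS against control, by 0.68 ± 0.07 on the log2 scale (adjusted p = 2.33e-06). It was 2.39-fold lower in Rg1 plus LPS than in LPS, a log2 fold change of -1.26 ± 0.07 (adjusted p = 8.08e-10), and 1.5-fold lower than in control, at -0.58 ± 0.07 (adjusted p = 1.44e-05). It had the smallest standard errors of the 10 genes.

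**Figure D3:**
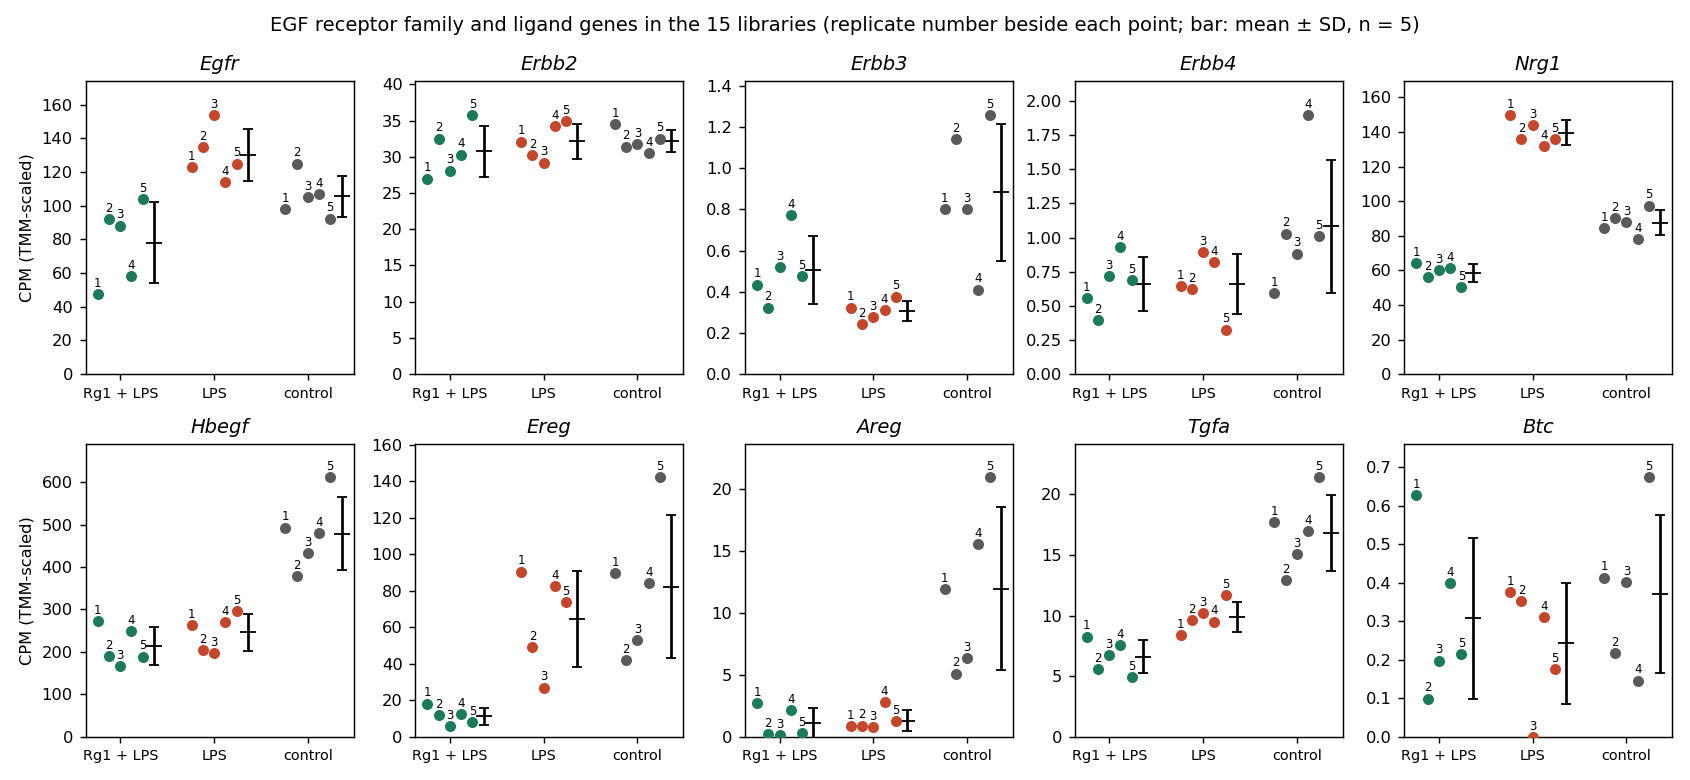
CPM of each of the 10 genes in the 15 libraries, on axes that start at 0; points carry the replicate number and bars are mean ± SD of 5. Nrg1 is highest with LPS and lowest with Rg1 plus LPS without overlap, Ereg is low in the Rg1 plus LPS libraries alone, and Areg is low in both treated groups.

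Hbegf was the most abundant ligand. It had 272, 191, 166, 249 and 189 CPM with Rg1 plus LPS, 264, 204, 197, 271 and 296 CPM with LPS and 493, 378, 432, 479 and 611 CPM in control. Both treated groups lay below control with no overlap and overlapped each other. Hbegf fell 1.94-fold in LPS against control, a log2 fold change of -0.96 ± 0.16 (adjusted p = 0.000308), and 2.24-fold in Rg1 plus LPS against control, at -1.17 ± 0.16 (adjusted p = 4.18e-05). Between Rg1 plus LPS and LPS the log2 fold change was -0.21 ± 0.16 and did not pass (adjusted p = 0.295). Without Rg1 plus LPS replicates 1 and 4 it was -0.43 (adjusted p = 0.0302), but these are the 2 highest Hbegf libraries of that group, so leaving them out lowers the value by construction.

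Areg had 2.71, 0.248, 0.124, 2.16 and 0.310 CPM with Rg1 plus LPS, 0.834, 0.895, 0.768, 2.79 and 1.25 CPM with LPS and 11.9, 5.09, 6.33, 15.5 and 20.9 CPM in control. Every treated library lay below every control library, and within the Rg1 plus LPS group replicates 1 and 4 stood far above the other 3. Areg fell 9.11-fold in LPS against control, a log2 fold change of -3.19 ± 0.68 (adjusted p = 0.00291), and 10.8-fold in Rg1 plus LPS against control, at -3.43 ± 0.68 (adjusted p = 0.00121). Between Rg1 plus LPS and LPS the log2 fold change was -0.24 with a 95% interval between -1.74 and 1.25, so the direction was not resolved. Leaving out LPS replicate 4 turned it to 0.23. Leaving out Rg1 plus LPS replicates 1 and 4 gave -2.50 (adjusted p = 0.011), and -5.69 against control. Those were the 2 highest Areg libraries of their group, so this change follows from the choice.

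Ereg, the neighbour of Areg on chromosome 5, followed another pattern. It had 18.2, 11.7, 5.78, 12.6 and 7.94 CPM with Rg1 plus LPS, 90.5, 49.3, 26.9, 82.5 and 73.9 CPM with LPS and 89.7, 41.8, 53.0, 84.1 and 142 CPM in control. Every Rg1 plus LPS library lay below every library of the other groups, while LPS and control overlapped over most of their range. Ereg fell 5.76-fold in Rg1 plus LPS against LPS, a log2 fold change of -2.53 ± 0.40 (adjusted p = 0.000107), and 7.32-fold against control, at -2.87 ± 0.40 (adjusted p = 6.54e-05). In LPS against control the log2 fold change was -0.35 with a 95% interval between -1.13 and 0.44 (adjusted p = 0.526).

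Tgfa was the one EGFR ligand that fell in all 3 comparisons. It had 8.26, 5.58, 6.77, 7.56 and 4.91 CPM with Rg1 plus LPS, 8.39, 9.60, 10.2, 9.51 and 11.7 CPM with LPS and 17.7, 12.9, 15.1, 17.0 and 21.4 CPM in control. The groups did not overlap, though the highest Rg1 plus LPS library nearly reached the lowest LPS library. The log2 fold change was -0.77 ± 0.15 in LPS against control (adjusted p = 0.0013), -0.58 ± 0.15 between Rg1 plus LPS and LPS (adjusted p = 0.00544) and -1.34 ± 0.15 between Rg1 plus LPS and control (adjusted p = 6.4e-06).

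Btc (betacellulin) was barely detected, with 62 counts summed over the Rg1 plus LPS group, 45 over LPS and 68 over control. LPS replicate 3 had no count, where 3 counts would be 0.0877 parts per M of its total. No comparison passed, and the 95% interval of the log2 fold change covered -0.96 to 1.61 between Rg1 plus LPS and LPS. An interval this wide holds no change as well as a 2-fold rise.

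Within a group, the EGFR ligands tended to be high in the same libraries. In control, Hbegf, Ereg and Tgfa all ranked the replicates 5, 1, 4, 3, 2 by level, and Areg ranked them 5, 4, 1, 3, 2. In the Rg1 plus LPS group, replicate 1 was highest and replicate 4 second for Hbegf, Ereg, Areg, Tgfa and Nrg1. In the LPS group, replicate 3 was the lowest for Hbegf, Ereg and Areg but second highest for Tgfa. The spread differed as well: within the Rg1 plus LPS group, Areg varied between 0.124 and 2.71 CPM while Hbegf stayed between 166 and 272 CPM.

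Within the Rg1 plus LPS group, replicates 1 and 4 were above the other 3 for Hbegf, Areg, Ereg, Tgfa, Btc and Nrg1. Of the 10 genes, Egfr alone had them below the other 3, opposite to its ligands. These libraries also lay apart on principal component 3 of all genes tested, where LPS replicates 1 and 4 likewise lay above the other LPS libraries. The share of all genes that split the Rg1 plus LPS libraries in either way was not counted. The Egfr order of libraries in the Rg1 plus LPS group was 5, 2, 3, 4, 1. The summed fibroblast and mural markers had the same order there, at 5320, 4480, 3770, 2480 and 1780 CPM. So did the summed neuron markers, at 686, 650, 620, 562 and 470 CPM. In control Egfr and the fibroblast and mural sum were highest in replicate 2 and lowest in replicate 5. In LPS both were lowest in replicate 4. The neuron sum differed in those groups, highest in control replicate 5 (609 CPM) and lowest in LPS replicate 3 (517 CPM). The Egfr order in LPS, 3, 2, 5, 1, 4, was also that of the summed astrocyte markers. Their replicates 5, 1 and 4 were nearly tied, at 6350, 6320 and 6290 CPM. The summed oligodendrocyte lineage markers had this order in LPS too, at 493, 468, 436, 410 and 398 CPM. In the Rg1 plus LPS group both sums were likewise lowest in replicates 1 and 4. In control the astrocyte sum was lowest in replicate 1 and the oligodendrocyte lineage sum in replicate 2. With 5 libraries a group these orders are descriptions, and the part of the cells that carry any of these markers in the Egfr result was not tested.

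**Figure D4:**
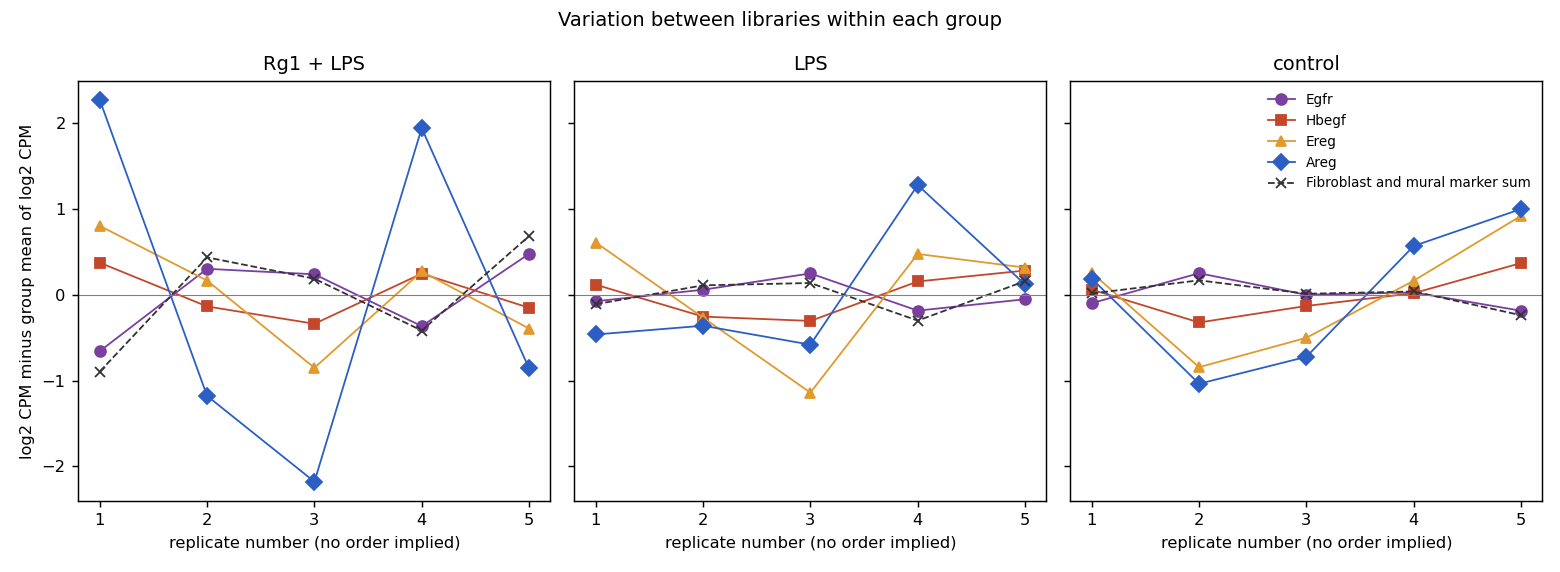
Log2 CPM of Egfr, Hbegf, Ereg, Areg and the summed fibroblast and mural markers in each library, as the difference from the group mean; lines join the values of 1 measure and imply no order of replicates. In the Rg1 plus LPS panel, replicates 1 and 4 are high for the 3 ligands and low for Egfr and the marker sum.

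The genes most like a member were sought by the root mean square difference of centred log2 CPM over the 15 libraries, among 10647 genes at 5 CPM or more on average. This was done for the genes with the highest and the lowest fold change of each comparison. For Nrg1, highest in LPS against control, these were Daam1, Asap1 and Cd44 at 0.10, 0.13 and 0.14, well under the 0.54 SD of Nrg1 itself. For Ereg, lowest between Rg1 plus LPS and LPS, they included Nipal1 and Ets1 at 0.51 and 0.53, against an SD of 1.46. For Areg, lowest in both comparisons with control, they were Fam110c, Cyp1a1 and Nefm, and even the closest differed by 0.63 where the SD of Areg was 2.11. The closest of the genes followed Areg down, with Fam110c at 3.39 CPM in Rg1 plus LPS, 6.63 CPM in LPS and 32.1 CPM in control. For Erbb3, highest between Rg1 plus LPS and LPS, they were Aatk, Lmbr1l and Cry2 at 0.33, 0.37 and 0.39. For Erbb2, highest between Rg1 plus LPS and control at -0.06, they were Pdia6, Selenon and Leprot at 0.06 to 0.07, beside an SD of 0.12.

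Of the 5 other ligands of the family, Egf, Epgn and Nrg3 did not pass the filter on low counts, and Nrg4 was tested at 22, 33 and 49 counts in the Rg1 plus LPS, LPS and control groups. Nrg2 averaged 10.6 ± 3.64 CPM with Rg1 plus LPS and 7.41 ± 1.43 CPM with LPS, and rose by a log2 fold change of 0.52 ± 0.20 (adjusted p = 0.046). Without Rg1 plus LPS replicates 1 and 4, its 2 lowest libraries in that group, this was 0.80 (adjusted p = 0.00107). Of the 5 ligands, 3 were then tested and 2 rose relative to LPS, Nrg2 among them, while none passed relative to control. The members of the lists that follow were taken from general knowledge of the pathway, and the share of all genes called in each comparison stands as their background. In LPS against control, 13.8% of all genes tested rose and 9.82% fell. With Rg1 plus LPS, 22.2% rose and 23.2% fell relative to LPS, and 18.8% rose and 18.1% fell relative to control.

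The proteins that release ligands from the membrane, 10 genes in all, included 3 that rose and none that fell in LPS against control. The largest of these was Rhbdf2, a pseudoprotease that carries ADAM17 to the cell surface. It had 4.78, 3.55, 2.52, 3.94 and 4.7 CPM with Rg1 plus LPS, 11.2, 14.5, 17.9, 13.9 and 12.6 CPM with LPS and 3.41, 3.09, 2.99, 3.78 and 3.25 CPM in control. The LPS libraries thus stood apart from both other groups, at a log2 fold change of 2.08 ± 0.17 against control (adjusted p = 7.44e-08). Adam17 itself rose by 0.32 ± 0.07 on the log2 scale (adjusted p = 0.00352) and Rhbdf1 by 0.40 ± 0.08 (adjusted p = 0.00102). Relative to LPS, 8 of the 10 fell with Rg1 plus LPS and none rose, led by Rhbdf2 at -1.84, Adam19 at -0.92, Adam17 at -0.34 and Adam9 at -0.47 on the log2 scale. Against control, 4 fell with Rg1 plus LPS: Adam19, Bace1, Adam10 and Adam9, by 0.94, 0.21, 0.28 and 0.31 on the log2 scale. Without Rg1 plus LPS replicates 1 and 4, 7 of the 10 fell relative to LPS, and Rhbdf1 no longer passed (adjusted p = 0.0864). Relative to control 5 then fell and 1 rose.

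Of 7 genes that restrain the receptors, 1 rose and 3 fell in LPS against control. Errfi1, an inhibitor that binds the EGFR kinase and is itself induced by EGFR signalling, had 62.8, 61.4, 53.4, 64.6 and 59.9 CPM with Rg1 plus LPS, 59.4, 64.7, 67.7, 65.4 and 69.2 CPM with LPS and 141, 88.5, 101, 184 and 218 CPM in control. Both treated groups were below control without overlap, and its log2 fold change was -1.17 ± 0.19 in LPS against control (adjusted p = 0.000297) and -1.28 ± 0.19 in Rg1 plus LPS against control (adjusted p = 0.000102). Cblb, a ubiquitin ligase that sends receptors for degradation, fell by 0.91 and Socs5 by 0.54 on the log2 scale in LPS against control. Lrig1, a membrane protein that promotes receptor loss, rose by 0.66 ± 0.08 in LPS against control (adjusted p = 1.41e-05) and was lower in Rg1 plus LPS than in LPS, at -1.37 ± 0.08 (adjusted p = 1.65e-09). Rg1 plus LPS relative to LPS had 5 of the 7 lower and none higher, among them also Cbl at -0.86, Socs5 at -1.16 and Socs4 at -0.58. Relative to control, 6 fell with Rg1 plus LPS and none rose, with Socs5 at -1.69, Cblb at -1.29, Cbl at -0.70 and Lrig1 at -0.71. Without Rg1 plus LPS replicates 1 and 4, 6 of the 7 fell relative to LPS and 6 relative to control.

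Of 24 adaptors and kinases between receptor and ERK or AKT, in LPS against control 5 rose and none fell, led by the docking protein Gab2 at 0.64, phospholipase Plcg1 at 0.37, the RAS activator Sos1 at 0.44 and the kinase Map2k2 at 0.19 on the log2 scale. With Rg1 plus LPS, 3 rose and 9 fell relative to LPS, beside 22.2% and 23.2% of all genes tested. The phosphatase Ptpn11 was at -0.47, Gab2 at -0.64, Braf at -0.42 and Plcg1 at -0.38, while Pik3r2, Mapk3 and Hras rose by 0.16, 0.15 and 0.23. Without Rg1 plus LPS replicates 1 and 4, 1 rose and 12 fell, and the calls of Pik3r2 (adjusted p = 0.058) and Hras (adjusted p = 0.205) were lost. Relative to control 5 rose with Rg1 plus LPS, among them Map2k2, Hras, Pik3r2 and Araf by 0.30, 0.35, 0.16 and 0.13. The 4 that fell were Ptpn11, Braf, Akt2 and Nras, by 0.31, 0.38, 0.25 and 0.16 on the log2 scale. Of all genes tested, 18.8% rose and 18.1% fell there, so that 5 and 4 of 24 are near the background shares. Without Rg1 plus LPS replicates 1 and 4, 3 of the 24 rose and 6 fell, and the call of Pik3r2 was lost (adjusted p = 0.0704).

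Of 20 genes known to respond to ERK signalling, 5 rose and 6 fell in LPS against control, with a median log2 fold change of -0.21 beside -0.003 over all genes. Ier3 and Ier2 rose by 2.73 and 1.50, Spry1 by 2.29 and Fos by 0.91 on the log2 scale, and these immediate-early and feedback genes also respond to other signals. Dusp5, an ERK phosphatase, fell by 1.99, Egr3 by 1.39, Spry2 by 0.55 and Etv5 by 0.28. With Rg1 plus LPS, 2 rose and 11 fell relative to LPS, with a median of -0.68 beside 0.028. Ier3 was at -2.64, Ier2 at -1.87, Phlda1 at -1.72 and Egr1 at -1.33, while Etv5 and Fos rose by 0.25 and 0.76. Against control, 2 rose and 13 fell with Rg1 plus LPS, with a median of -0.59 beside 0.011. Dusp5 was at -2.45, Egr3 at -2.66, Phlda1 at -1.37 and Myc at -0.96, whereas Fos and Spry1 rose by 1.67 and 1.25. Leaving out Rg1 plus LPS replicates 1 and 4, in which Spry1 was lowest of its group, gave 1.66 for Spry1 against control. Of the 20 genes, 13 then fell relative to LPS as well as to control, and 3 rose relative to control.

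**Figure D5:**
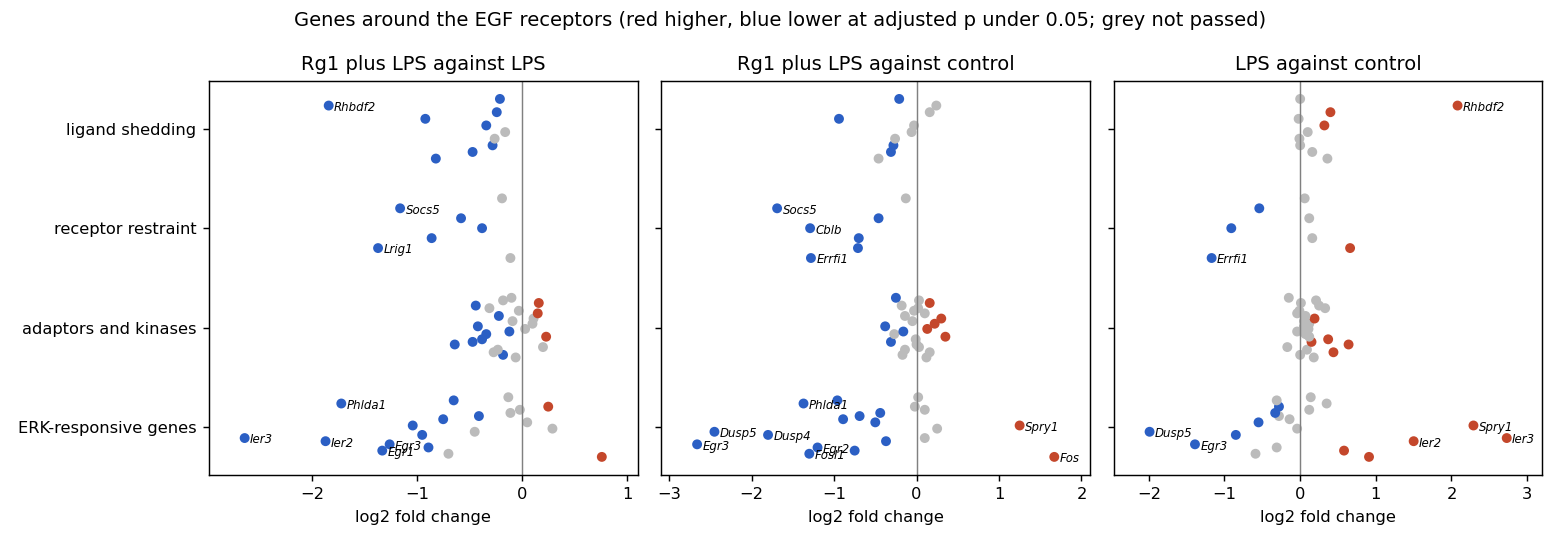
Log2 fold change of each gene of 4 pathway lists in the 3 comparisons, with points past a log2 fold change of 1.1 in size named; red points rose and blue points fell at adjusted p under 0.05, and grey points did not pass. In the left panel, 8 of 10 shedding genes, 5 of 7 restraint genes, 9 of 24 adaptors and kinases and 11 of 20 ERK-responsive genes are blue. Of all genes tested, 23.2% fell in that comparison.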

How the data were processed

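RNA-seq libraries were made from polyadenylated RNA with the VAHTS Universal V6 kit, per the labels' protocols. Each library has raw counts and FPKM by gene symbol, both deposited by the authors; the submitters' processing notes name GRCm38 and mm10. Aligner, counter, annotation and strandedness: not given in the sources used here. The deposited FPKM equalled count over gene length and total count to a relative deviation of at most 7.22e-10, and 37 damaged rows of the FPKM files, none a member, were left out.

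Counts were fitted in R 4.3.3 with edgeR 4.0.16 (filterByExpr by group, TMM factors, robust quasi-likelihood fit, two-sided F-test) on all 15 libraries with group as the only term. CPM use the TMM-scaled library size. Alternatives used DESeq2 1.42.0, limma 3.58.1 (voom, or log2 of FPKM plus 0.1 or 1), library size alone, no filter, the compared groups alone, a replicate block, a lowess correction for gene length (span 0.3) and each library left out. The fits were tested on counts simulated with set fold changes. Groups follow the sample titles and the design text, since the treatment field of the third group differs between its libraries. No pair of libraries of a group agreed within sampling noise. The members, the lists, the motifs and the tests were chosen with earlier results of these data known. All members are named, and of each list up to 4 genes that rose and 4 that fell by smallest adjusted p. One gene that the rule for like patterns would name is not reported here. Without a known strand setting, reads of Erbb2 and Mien1 (9 shared exonic bases), Ereg and Gm19610 (141), Tgfa and Gm43917 (118), and Nrg1 and Gm26578 (482) cannot be told apart there. Floors in counts cover counting error only, as PCR copies of a molecule are not independent of each other.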

Additional observations from a re-analysis of the deposited data

Results flagged for a closer look

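In the LPS group, Areg was 2.79 CPM in replicate 4, against 0.768 to 1.25 CPM in the other 4 libraries. Its gap to the nearest library was 0.761 of the group's whole range, above the critical value of 0.71 for 5 samples. It was the one such value in 30 sets of 5 libraries examined, where chance flags about 1 in 20. Without LPS replicate 4, the log2 fold change of Areg in LPS against control was -3.66.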

How the results depend on the processing

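Every comparison kept its number of members called within 1.5 times under all alternatives, with 5 in LPS against control, 4 between Rg1 plus LPS and LPS, and 5 to 6 between Rg1 plus LPS and control when single libraries were left out. Of 590 log2 fold changes of members under an alternative, 537 kept direction and side of the threshold, 16 lost the call, 10 gained one and 27 changed sign, all of the last without a call. Scaling by library size alone moved the median of all genes in Rg1 plus LPS against LPS to 0.140, and the share of higher genes among those called to 65% from 48.9% there, to 63.9% from 50.9% in Rg1 plus LPS against control and to 45.9% from 58.5% in LPS against control.

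Sign changes in Rg1 plus LPS against LPS were as follows. Erbb2 was 0.05 with library size alone, 0.02 with the length correction, 0.04 on either FPKM scale and 0.01 without Rg1 plus LPS replicates 1 and 4. Erbb4 was 0.11, 0.26 and 0.03 with library size alone, the length correction and voom, and 0.02 and 0.00 with log2 of FPKM plus 0.1 and plus 1. Btc was -0.51 without replicates 1 and 4. Leaving out single libraries gave -0.91 to 0.23 for Areg, -0.11 to 0.57 for Btc and -0.17 to 0.15 for Erbb4. In Rg1 plus LPS against control, Erbb2 was 0.00 with library size alone and without replicates 1 and 4, and Btc ran from -0.7 to 0.06. In LPS against control Erbb2 ran from -0.04 to 0.03. The cause was not tested.

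Leaving out Rg1 plus LPS replicates 1 and 4, chosen after seeing the data, gave 6 members called in each comparison of that group. The labels do not say that replicate numbers pair samples. Same-numbered libraries of the Rg1 plus LPS and LPS groups deviated with correlations of 0.0499 to 0.424, 4 of 5 over 0.1, and 3 of 5 matched their own number best, a hint of pairing from the data. With control they were -0.218 to 0.136 for Rg1 plus LPS and -0.222 to 0.155 for LPS, so the numbers were not treated as pairs. With the replicate block the members called stayed 5, 4 and 6, with Egfr at -0.47 (adjusted p = 0.0294) gained and Erbb3 at -0.79 (adjusted p = 0.0855) lost in Rg1 plus LPS against control. Egfr passed in LPS against control when those groups alone were fitted (adjusted p = 0.0318), and Erbb3 in Rg1 plus LPS against LPS with library size alone (0.0471) and the length correction (0.0499). Erbb3, Erbb4 and Btc rest on few counts, while Areg has the largest standard errors, 0.68 to 0.70.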
